A study of Drosophila melanogaster with 4 samples.

Results

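Short groups of 2 to 4 neighbouring peaks on the chromosome arms of Drosophila melanogaster were described, from a chromatin immunoprecipitation (ChIP-seq) peak list of whole embryos. Arm peaks were sorted by position and joined into a group wherever the gap from the last base of one peak to the first base of the next was 500 bp or less, and groups of 2, 3 or 4 peaks were kept. This gave 199 groups with 529 peaks, out of 1668 peaks on the 6 arms and 9485 peaks in the whole list. There were 106 pairs, 55 groups of 3 and 38 groups of 4. The remaining arm peaks were 755 single peaks and 384 peaks in 60 longer runs of 5 or more. Members were chosen by the start and end positions of the called peaks. Group sizes, gaps and lengths are therefore descriptions with no test, and scores come from the same peak calling.

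The series holds 2 ChIP and 2 input libraries, all labelled strain Hr46-GFP, genotype PBac{y[+]-attP-3B}VK00033, with a transgene of the Hr46 genomic coding region and developmental stage Embryo 0-8. The ChIP libraries used the mouse monoclonal antibody tgo mouse Crews, listed with tango as target, while the sample titles name TCF. The protocol text names y; bw cn sp flies and a collection of 8 to 16 hours, so neither the protein nor the stage is settled by the labels. The titles also carry the tag nonISO1, and the protocol names other flies than the strain label, so the strain is not settled either. The authors deposited 1 list for all libraries, so no peak has a value per library or a replicate error. Read depth is unknown, and no ChIP library could be set against input.

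ChIP-seq enriches DNA that was crosslinked to a protein, and a peak caller such as MACS marks stretches where reads pile up. Tango is the fly ARNT, a basic helix-loop-helix PAS protein that pairs with partners such as Single-minded and Trachealess. TCF (Pangolin) binds DNA for Wingless signalling through Armadillo, and Hr46 is a nuclear receptor of the ecdysone cascade. Factors of these kinds typically give narrow peaks, and several peaks within a few kb can be separate sites or one broad area of signal that the caller cut into pieces. The Drosophila arms also carry dispersed transposable elements in many near-identical copies, and reads from such copies cannot be placed at one copy with confidence. How multiply mapping reads were handled is not given in the sources used here.

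The groups lay on all 6 arms. X held 46 groups (2.05 per Mb between its outermost peaks), 2L held 43 (1.90 per Mb), 3L held 39 (1.60 per Mb), 3R held 38 (1.36 per Mb) and 2R held 31 (1.47 per Mb). Chromosome 4 held 2 groups, both pairs, or 2.72 per Mb over a span of 0.735 Mb. Its outermost arm peaks belong to these 2 pairs, so they set the span themselves. This density therefore cannot be ranked with those of the other arms. Member peaks made up 38.4% of the arm peaks on X, 32.8% on 3R, 30.8% on chromosome 4 (4 of 13), 30.6% on 3L, 29.6% on 2L and 27.0% on 2R. The chromosome 4 pairs were small and weak. One ran from 581865 to 582777 (release 5 coordinates throughout) with peak scores of 8.32 and 11.95, and the other from 1315421 to 1316652 with scores of 15.18 and 9.94.

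Gaps inside the groups were mostly much shorter than the limit. The median of the 330 gaps was 185 bp, with quartiles at 77 and 281 bp, and 107 of them (32.4%) were 50 to 99 bp. No gap in the whole list was shorter than 50 bp. Among all neighbouring arm peaks, 232 gaps were 50 to 99 bp. The other gaps within the limit, 324 inside runs, had a lower quartile of 74 bp, so gaps this short were not particular to the short groups. Inside pairs the median gap was 195.5 bp, in groups of 3 it was 179.5 bp and in groups of 4 it was 172.5 bp, and in runs of 5 or more it was 156 bp. The limit did not fall in an empty range. The 2 largest gaps just inside it were 498 and 493 bp, and the 2 smallest just outside it were 502 and 503 bp. Among all neighbouring arm peaks, 56 gaps were longer than 400 and up to 500 bp, and 50 were longer than 500 and up to 600 bp.

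**Figure D1:**
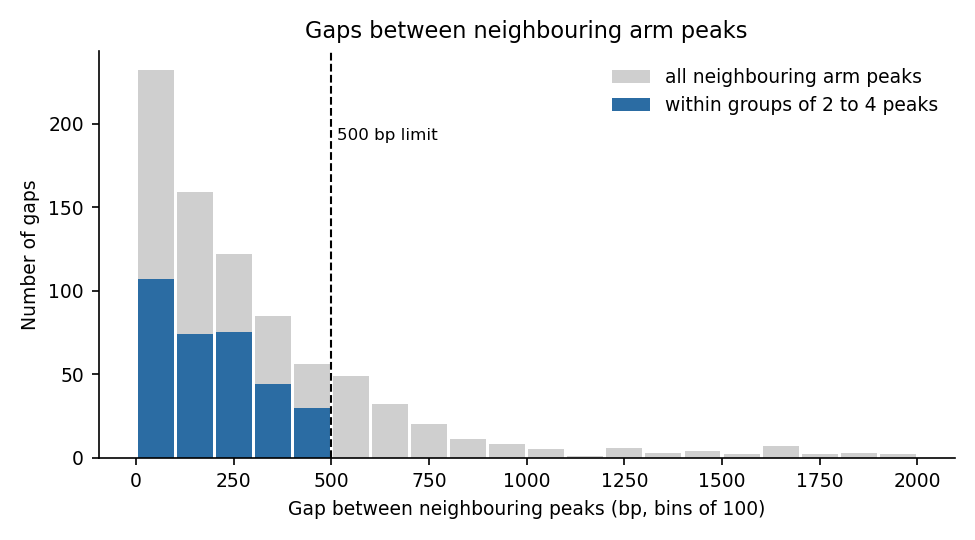
Number of gaps (vertical axis) by gap length in bp (horizontal axis, bins of 100 bp, gaps under 2000 bp) for all neighbouring arm peaks in grey and for gaps inside groups of 2 to 4 peaks in blue. Counts decline across the 500 bp limit without a break, from 56 gaps at 400 to 499 bp to 49 at 500 to 599 bp.

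Member peaks were modest in score. The score is the authors' own value per peak on an unstated scale. Across the 529 member peaks it ranged from 6.41 to 55.88 and its median was 16.8, with quartiles at 12.5 and 21.8. Single arm peaks had a median of 17.7 and runs had a median of 18.2, so the middles of the 3 distributions lay close together. The upper tails were further apart in these data. A score of 30 or more was reached by 15.0% of all arm peaks, by 227 of 755 single peaks (30.1%), by 19 of 529 member peaks (3.59%, exact 95% interval 2.18 to 5.55%) and by 5 of 384 run peaks (1.3%). A score of 50 or more was reached by 9.35% of all arm peaks and by 1 member peak. A score of 20 or more was reached by 38.7% of all arm peaks and by 169 member peaks (31.9%). These intervals cover counting error only, and peaks of a group are not independent, so the shares were not tested against each other.

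Of the 5 groups with the highest scores, 4 were pairs. Over all groups, however, the median highest score per group was 19.63 in pairs, 20.65 in groups of 3 and 24.4 in groups of 4. The highest of more peaks tends to be higher by construction. Median scores per peak lay closer together, at 16.6 in pairs, 16.8 in groups of 3 and 18.0 in groups of 4. The highest member score, 55.88, belonged to the second peak of a pair on X from 11539405 to 11542121, whose first peak scored 37.99. A pair on 2R from 3903411 to 3904964 scored 28.46 and 49.7. On 3L, a pair from 7979056 to 7980426 scored 49.33 over 744 bp and 14.73 over 212 bp. A pair on 3R from 17435226 to 17437154 scored 26.35 and 47.38. The fifth was a group of 3 on 2L from 22407779 to 22412404, with scores of 31.54, 43.42 and 38.09, the highest in the middle. The first 4 of these had no other arm peak within 1000 bp, whereas the group on 2L had one 521 bp away.

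Within a group, peaks differed by less than the full range of scores. The highest score was 1.53 times the lowest in the median group (1.36 times in pairs, 1.55 in groups of 3 and 2.03 in groups of 4), and at most 3.64 times. The highest-scoring peak was also the widest in 133 of 199 groups (66.8%). By size this was 73.6% of pairs, 63.6% of groups of 3 and 52.6% of groups of 4. Both the score ratio and this share depend on the number of peaks, so they cannot be compared directly between sizes. Over member peaks, score and width gave a Spearman's rho of 0.67 and a Pearson's r of 0.47, given as a description because peaks of one group share their surroundings and their caller. For single arm peaks rho was 0.60 and r was 0.11, and in runs they were 0.70 and 0.59. The highest peak stood at every place in some groups. In pairs it was the first in 44 and the second in 62. In groups of 3 it was the first in 19, the middle in 21 and the last in 15, and in groups of 4 it was the first in 8, the second in 8, the third in 14 and the last in 8. Inner and end peaks of groups of 3 and 4 had median widths of 745 and 744 bp and median scores of 18.0 and 16.8.

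**Figure D2:**
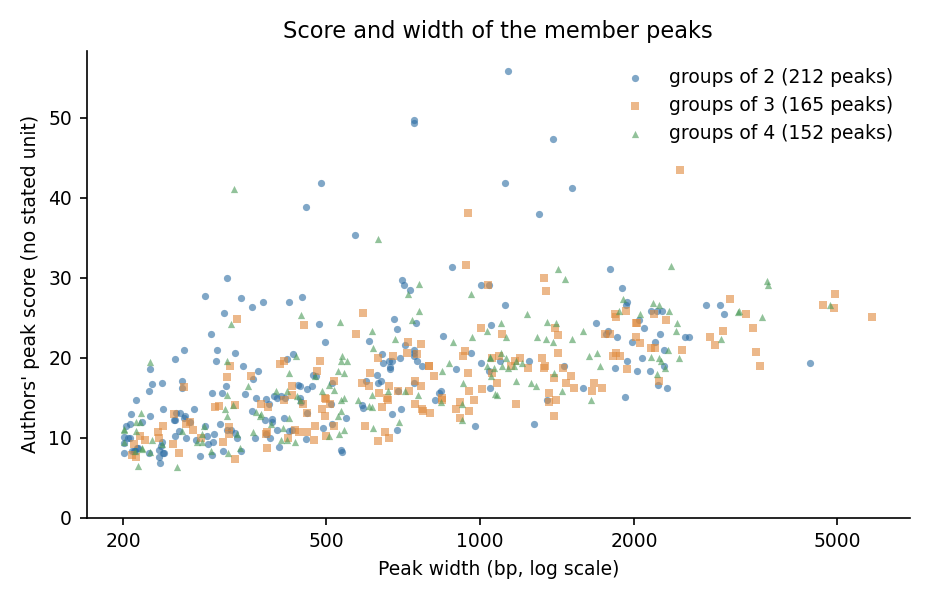
Authors' peak score (vertical axis, no stated unit) against peak width in bp (horizontal axis, log scale) for each of the 529 member peaks, with pairs as circles, groups of 3 as squares and groups of 4 as triangles. Most points lie in a band that climbs from about the 10 level at narrow widths, while the 4 highest scores belong to pairs of intermediate width.

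The median member peak was 631 bp wide, with quartiles at 358 and 1240 bp, and the median single arm peak was 389 bp wide. The width ranged from 201 bp, the smallest in the whole list, to 5856 bp for the first peak of a group of 3 on 3R from 15982730 to 15991489. Widths were smallest in pairs, with a median of 458.5 bp, against 772 bp in groups of 3 and 671 bp in groups of 4. Peaks covered 89.2% of the length of the median group.

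Group lengths were unevenly spread. Over all 199 groups the median length was 2680 bp and the range 505 to 8859 bp. Pairs had a median of 1347 bp, groups of 3 one of 3336 bp and groups of 4 one of 3472 bp. Counted in bins of 0.5 kb, the numbers declined from 34 groups at 500 to 1000 bp to 9 at 2000 to 2500 bp, were 26 and 36 in the next 2 bins up to 3500 bp, were 7 and 6 up to 4500 bp, and were 16 at 4500 to 5000 bp and 6 at 5000 to 5500 bp. The bins from 5500 to 6500 bp were empty, and 13 groups were longer. The shortest pair lay on 3R from 1165341 to 1165845, with 2 peaks of 238 and 214 bp separated by 53 bp and scores of 9.52 and 8.77. The longest pair lay on X from 1631376 to 1636380 and joined a 510 bp peak to one of 4429 bp. The pair nearest the median length was on 2L from 10593727 to 10595049, with scores of 16.14 and 18.57.

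Groups of 3 and 4 spanned similar lengths at both extremes. The shortest group of 3 lay on 2L from 12793590 to 12795098 and the longest, of 8838 bp, on 2L from 10947154 to 10955991. The shortest group of 4 lay on X from 2508516 to 2510001, with 4 narrow peaks of 212, 218, 212 and 201 bp that scored 10.87, 8.55, 11.96 and 11.15. The longest, of 8859 bp, lay on X from 13999166 to 14008024, with widths of 3635, 2364, 1164 and 1173 bp and scores of 29.53, 31.47, 18.98 and 19.63. The groups nearest the median lengths were both on 2L. The group of 3 from 17688611 to 17691946 scored 10.69, 13.32 and 18.67 from left to right, and the group of 4 from 17145112 to 17148547 scored 24.51, 20.14, 13.84 and 12.98.

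Many groups were not isolated. Of the 199 groups, 101 (50.8%) had another arm peak between 502 and 1000 bp away, just beyond the limit. The share was 42.5% of pairs, 60.0% of groups of 3 and 60.5% of groups of 4. The nearest such neighbour belonged to another short group for 56 groups, was a single peak for 33 and belonged to a longer run for 12. The other 98 groups stood apart by more than 1000 bp. By length, 60 were under 2 kb, 27 were 2 to 4 kb, 1 was 4824 bp and 10 were between 6921 and 8859 bp. The median distance to the nearest other arm peak was 982 bp for short groups (quartiles 620 and 29474.5 bp). For runs of 5 or more it was 23641.5 bp (718 and 78307.5 bp). The share within 1000 bp was not counted for runs or single peaks.

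**Figure D3:**
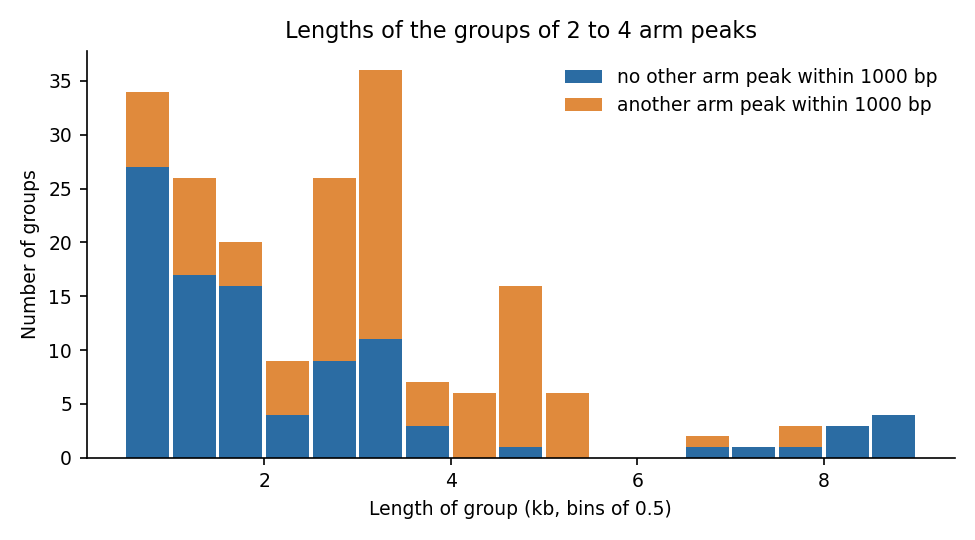
Number of groups (vertical axis) by group length in kb (horizontal axis, bins of 0.5 kb), with groups that have no other arm peak within 1000 bp in blue and groups that have one in orange, stacked. Groups that stand apart are mostly under 2 kb or around 3 kb, groups with a near neighbour fill the ranges around 3 kb and between 4.5 and 5 kb, and the bars leave an empty range below 6.5 kb.

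The groups that stood apart are described by length class. The 60 groups under 2 kb were 54 pairs, 5 groups of 3 and 1 group of 4. Their peaks had a median width of 358 bp, and the highest score per group had a median of 20.1 and ranged from 8.21 to 49.7. The 27 groups of 2 to 4 kb had a median peak width of 750 bp and a median highest score of 18.0 (13.6 to 55.88). The 10 longest were 3 groups of 3 and 7 groups of 4, with a median peak width of 1870 bp. Their median covered share was 94.3%, and their median highest score was 26.2 (22.3 to 31.47). With at most 4 peaks and gaps of 500 bp or less, groups this long must have wide peaks and high coverage. Length classes were set on these lengths, so the contrasts are descriptions.

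Joining arm peaks at gaps of up to 1000 bp placed the 101 groups with near neighbours in 70 wider stretches. Of these, 20 were under 4 kb, 2 were 4 to 6 kb, 13 were 6 to 8 kb, 28 (40%, exact 95% interval 28.5 to 52.4%) were 8 to 9 kb and 7 were longer, up to 21509 bp. The 28 stretches of 8 to 9 kb held 45 of the short groups. They lay on all 5 long arms, with 7 on 3R, 6 on 3L, 6 on X, 5 on 2L and 4 on 2R. The class of 8 to 9 kb was known beforehand as the commonest length of the longer runs in this list, so its presence here is not independent of that pattern, although no stretch of this class has room for both such a run and a short group.

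Most of these stretches were divided at a similar place by their largest gap. They held 3 to 8 peaks each (median 5), so the number of peaks differed among them. The pieces on the 2 sides of the largest gap are given here as the shorter and the longer piece. The median shorter piece was 3180 bp long, with quartiles at 2866 and 3348 bp. The median largest gap was 640.5 bp, and the median longer piece was 4948 bp, with quartiles at 4759 and 5012 bp. With the length limited to 8 to 9 kb, the longer piece largely follows from the shorter piece and the gap. For example, the stretch on X from 7019435 to 7028171 had a piece of 3202 bp, a gap of 584 bp and a piece of 4951 bp. On 3R from 22202160 to 22211148 the order was opposite, with a piece of 5060 bp, a gap of 595 bp and a piece of 3334 bp. On 2R from 16256288 to 16264992 the pieces were 2965 and 4945 bp with a gap of 795 bp between them. These 3 stretches were chosen after their values were seen. The stretches farthest from this division were on 3L from 110338 to 119213, with pieces of 464 and 7751 bp, and on X from 16234935 to 16243740, with pieces of 788 and 7295 bp.

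The long groups that stood apart were measured in the same way. In 6 of those 10 groups the midpoint of the largest gap lay 3.2 to 3.8 kb from the nearer end. On 3R from 15267751 to 15276198, a group of 4 with widths of 529, 2413, 3568 and 1256 bp and scores of 10.44, 23.3, 25.09 and 16.8, it lay 3.39 kb from the end. On 2L from 10947154 to 10955991 it lay 3.68 kb from the end, and on 2L from 5827909 to 5836147, a group of 4 with a first peak of 4842 bp, 3.25 kb. In the other 4 groups it lay 0.611, 1.16, 2.35 and 2.49 kb from the nearer end. The range of 3.2 to 3.8 kb was set on these 10 groups and then applied to other regions. Of the 28 stretches, 21 (75%, exact 95% interval 55.1 to 89.3%) had their largest gap there, and 14 of the 31 runs of 8 to 9 kb (45.2%) did. The range is 0.6 kb wide, and a stretch of median length reaches 4.36 kb from its end to its middle. In the 7 stretches outside it, 5 had the largest gap 2.95 to 3.09 kb from the nearer end, while 1 on 3L had it at 0.795 kb and 1 on X at 1.15 kb. The gap that divides a stretch had to exceed 500 bp for the stretch to hold a short group beside another peak, so the rule bounds its size. The limits on group size and stretch length, and measuring from the nearer end, also constrain its position, and how far they do was not tested.

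**Figure D4:**
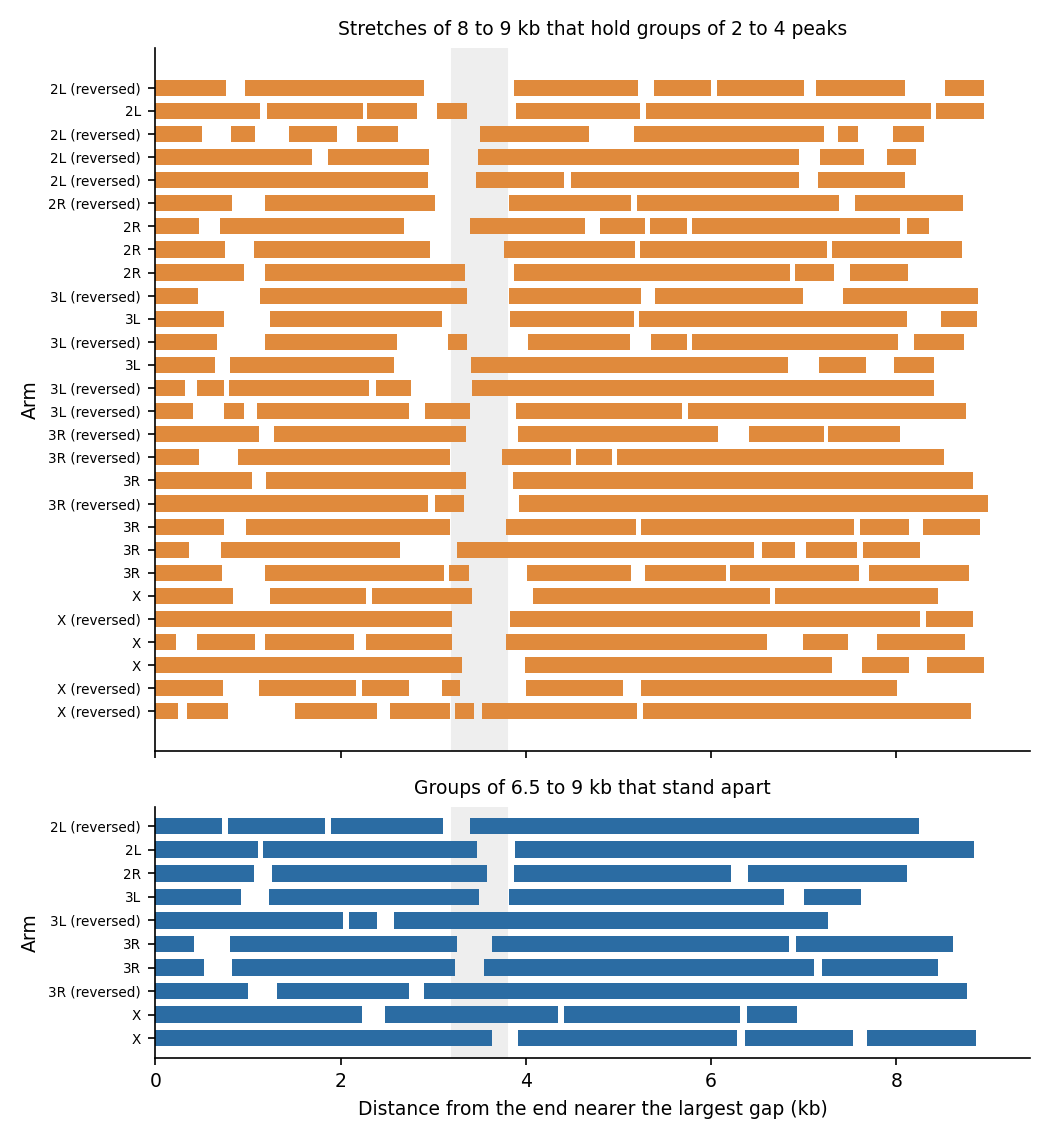
Peaks drawn as bars by distance in kb from the end nearer the largest gap (horizontal axis), 1 line per region labelled with its arm: the 28 stretches of 8 to 9 kb that hold short groups (orange) and the 10 groups of 6.5 to 9 kb that stand apart (blue). Regions marked reversed were turned so that the largest gap falls on the left, and the grey band marks 3.2 to 3.8 kb, where 21 of the 28 and 6 of the 10 have it.

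Of the 21 stretches with the largest gap in that range, 10 had the shorter piece at the lower coordinates and 11 at the higher ones, so both orders occurred about equally. A second gap was looked for near the outer end of the shorter piece. A gap with its midpoint 0.7 to 1.3 kb from that end was present in 15 of these 21 stretches, against 8 with one at the same distance from the opposite end. In the 6 long groups that stood apart the counts were 4 and 3, and in the 14 runs they were 11 and 8. The range of 0.7 to 1.3 kb was chosen after the layouts were drawn, so the count of 15 against 8 is no evidence of a recurring gap. No test was made. Sequence of release 5 was not used here, so whether these regions share sequence was not tested.

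The highest score per stretch ranged from 20.44 to 53.39 over the 28 stretches, with a median of 26.5 and quartiles at 25.3 and 29.3. The upper extreme was the stretch on 2L from 22407779 to 22415865, which contains the group of 3 with a score of 43.42 named above. Stretch scores include peaks outside the short groups, and the score of 53.39 belonged to such a peak.

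Short pairs were compared by all their lengths. A layout was called recurring where another group of the same size had every width and every gap within 50 bp, in the same or the opposite order. This held for 35 groups (17.6%), all of them pairs of at most 1232 bp, among 51 pairs that short. They formed 7 sets, of which the 3 largest held 11, 8 and 6 pairs. The set of 11 lay on 2L, 3R and X with lengths of 673 to 909 bp, and the set of 8 on 5 arms with lengths of 505 to 606 bp. The closest match joined a pair on 2L from 4435020 to 4435748, with peaks of 415 and 263 bp and a gap of 51 bp, to a pair on X from 6238487 to 6239216, with 413 and 266 bp and the same gap. Their scores were 15.02 and 20.95 on 2L and 12.51 and 9.94 on X. Short pairs have only 3 lengths to match and lie near the smallest width and gap of the list, and the count more than doubled when the tolerance was widened to 100 bp, from 17.6 to 37.7% of groups. No group of 3 or 4 had a recurring layout by this measure.

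A set joins pairs through chains of matches, so 2 of its members need not match each other. Scores varied widely among the first pairs of the sets by position. In the set of 11, pairs on 2L scored 12.17 and 11.53 (from 771310 to 772070), 15.02 and 20.95 (from 4435020), 9.71 and 35.36 (from 19082801 to 19083709) and 19.89 and 24.19 (from 21511004). In the set of 8, a pair on 2L from 1586310 to 1586890 scored 9.94 and 7.87, and one from 22259519 to 22260124 scored 16.8 and 27.75. The pair of its members on 2R scored 10.19 and 10.19 (from 5368529 to 5369127) and 22.98 and 9.94 (from 20214770 to 20215329). In the set of 6, pairs on 2L scored 13.6 and 6.82 (from 21569377 to 21570067) and 8.32 and 8.53 (from 22380446 to 22381127). On 3R they scored 13.03 and 10.16 (from 4398635 to 4399250) and 15.9 and 11.98 (from 26222150 to 26222862), and the highest score in this set was 18.54.

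Along the arms, short groups were placed by the midpoint of each group. On the 5 long arms, 48 of 197 groups (24.4%, exact 95% interval 18.5 to 31.0%) lay in the 10% of the arm's span nearest the centromere, where 18.9% of all groups of any size lay. Single peaks gave 137 of 746 (18.4%) and runs 5 of 60 (8.33%). By arm the shares of short groups were 17 of 43 on 2L, 13 of 39 on 3L, 10 of 46 on X, 5 of 38 on 3R and 3 of 31 on 2R. Single peaks and runs were not counted by arm, so differences between arms cannot be read as particular to short groups. With the densest arm block, described next, left out of every class, the shares were 39 of 188 short groups (20.7%), 92 of 701 single peaks (13.1%), 3 of 58 runs (5.17%) and 134 of 947 groups of any size (14.1%). Neighbouring groups are not independent, and these shares were not tested against each other.

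The densest block of arm peaks lay on 2L between 21400001 and 21600000. It combined the 100 kb window with the most arm peaks (48) and its denser neighbour (33). It held 9 short groups with 19 peaks, or 4.52% of all short groups, next to 45 single peaks and 15 peaks in runs. A further short group crossed its upper end. The block held 80 of the 1668 arm peaks. The 19 member peaks were 23.75% of these 80, against 31.7% of all arm peaks, so the block was not rich in short groups for its number of peaks. Member scores in it had a median of 17.35. The tandem array of replication-dependent histone genes is known to lie in the proximal part of 2L. Gene annotation of release 5 was not used here, so its position relative to this block was not tested.

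Distances between short groups in the block varied. In order of position, the first 8 were a group of 3 from 21426568 to 21428342 and pairs that started at 21436693, 21476699, 21485803, 21495201, 21511004, 21525700 and 21530206. Between the midpoints of their highest-scoring peaks, successive distances were 9.97, 39.99, 9.29, 10.1, 15.3, 14.3 and 5.13 kb. Each of these 7 distances lay within 0.711 kb of a multiple of 5 kb. The ninth group, a pair from 21569377 to 21570067 next to a run, followed after 38.5 kb and lay 1.49 kb off, where 2.5 kb is the most possible. The unit of 5 kb was read from these same distances, so their closeness to it is no evidence of a regular spacing. The highest scores of the first 8 groups were 20.25, 17.35, 10.6, 29.71, 18.88, 24.19, 27.42 and 22.08.

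**Figure D5:**
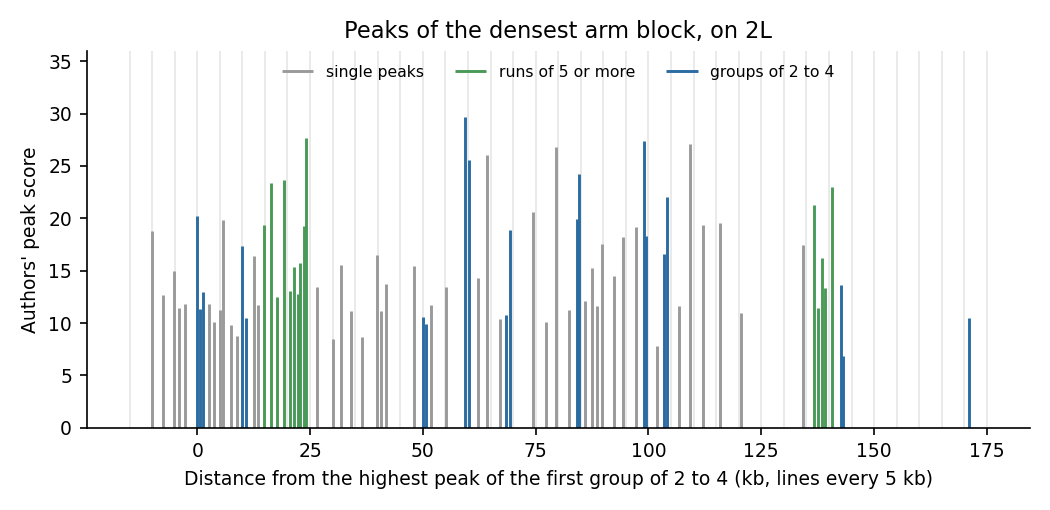
Authors' peak score (vertical axis) of each peak in the densest arm block, on 2L, by distance in kb from the highest peak of its first short group (horizontal axis, grey lines every 5 kb), with short groups in blue, runs in green and single peaks in grey. The highest peaks of the first 8 short groups lie 0 to 1.03 kb from the nearest grey line and that of the ninth 2.39 kb from one, and the blue line farthest right is a peak of a group that crosses the end of the block.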

How the data were processed

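The authors deposited 1 peak list for 2 ChIP and 2 input libraries, with a first and a last base (FlyBase release 5, 1-based, per the file headers) and a score per peak of unstated scale. Its source field reads MACS. Per the submitters' processing notes, which give no order, the tools included CASAVA 1.7.0.2 and 1.7.0.3, BWA and MACS2, with the build BDGP5. The peak threshold, the use of input and any pooling of replicates are not stated, and depth is unknown.

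From the deposited scores and positions, arm peaks were joined at gaps of 500 bp or less, with gap limits of 200 and 1000 bp, score limits of 15 and 20, and the list without its densest arm block as alternatives. No test was made, since there are no values per library. Joining was tested on simulated data. Intervals of shares are exact binomial (Clopper-Pearson) at 95% and cover counting error only. Alternatives of medians were set against 95% intervals of the medians, such as 2246 to 2975 bp for group length. With no values per library, neither kind measures a spread between replicates. The group members, classes and ranges were chosen with earlier results of these data known. Groups named are the 5 with the highest score, the longest, shortest and median group of each size, those of chromosome 4, up to 8 of the densest block and up to 4 of each of the 3 largest layout sets; others were chosen after their values were seen. The design also listed sequence; no genome of release 5 was used here, and gene names were left out because the gene table at hand is on release 6. Analyses used Python 3.11.15, numpy 2.4.6, pandas 2.3.3, scipy 1.17.1, networkx 3.6.1 and matplotlib 3.10.9.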

Additional observations from a re-analysis of the deposited data

How the results depend on the processing

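No paired analysis was possible because the list holds no values per library, which also prevented leaving out a replicate. Of 55 alternative values, 31 stayed within 1.5 times the main count or within the main value's 95% interval. The 199 groups numbered 71 with peaks scoring 20 or more. The share of arm peaks in groups, 31.7%, was 22.7% with a gap limit of 1000 bp, 38.8% with a score limit of 15 and 25.7% with one of 20. In the same order, the median length was 1861, 3176 and 3487 bp, the median score 15.3, 20.3 and 23.7 (a score limit lifts it by construction) and the median width 489, 1078 and 1394 bp; with a gap limit of 200 bp the width was 693 bp. The share with a recurring layout was 25% with a gap limit of 200 bp, 3.73 and 2.82% with score limits of 15 and 20, and 6.03 and 37.7% with tolerances of 25 and 100 bp. The densest block held 1.41% of groups at scores of 20 or more; without the block this share has no value. With gap limits of 200 and 1000 bp, which bound both measures, the median gap was 85 and 231 bp and the median distance to the nearest other arm peak 397.5 and 29257 bp (main 982 bp). Where no construction is named, the cause was not tested. With link limits of 750 and 1500 bp, added after the data were seen, 44.6 and 39.4% of stretches were 8 to 9 kb long, and 76 and 75% of those had the largest gap at 3.2 to 3.8 kb.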

Other observations

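Scores repeated often among member peaks. The 529 peaks held 238 distinct score values, and 365 peaks (69.0%) shared their score with at least 1 other member peak. The commonest, 19.63, occurred 15 times. In runs, 384 peaks held 127 distinct values and 83.6% shared one, and among single arm peaks 755 held 377 distinct values and 66.2% shared one. How the score was computed is not given in the sources used here.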
